A study of Mus musculus with 6 samples.

Results

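Transcripts of 10 genes were followed, Emd, Lemd2, Lemd3, Tmpo, Banf1, Lbr, Sun1, Sun2, Syne1 and Syne2. They encode proteins that sit beside or bind the nuclear lamina. A gene was taken where a probe set of the array was annotated to its symbol alone, and its brightest such probe set, by the mean of the 6 arrays, stood for it. All 10 genes were found, among 18193 genes measured, and they had 26 probe sets among 45037. The arrays were Affymetrix arrays of RNA from primary mouse fibroblasts of the strain C57bl6X129S3/J. Cells with the Delta9 allele of Lmna gave 3 samples and wild-type (WT) cells of siblings gave 3, each on its own array. Both groups had been kept at confluency over 3 passages and deprived of serum for 72 hours before RNA was extracted. The labels do not state the zygosity of the allele, the age or number of the animals, or whether the 3 samples of a group came from separate animals, so p-values reflect only how these samples spread, which may be technical. The sample labels call the fibroblasts adult, and the series' design text calls them post-natal.

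The lamina is a mesh of lamins A, C, B1 and B2 under the inner nuclear membrane. Proteins with a LEM domain, a short fold that binds the DNA-bridging protein BAF, tie chromatin to that membrane and to the lamins. SUN proteins span the inner membrane and grip the KASH tails of nesprins in the outer membrane. Together they form the LINC complex, which links the lamina to actin, microtubules and intermediate filaments. In fibroblasts these links are known for holding and moving the nucleus, and mutations in several of the human genes cause muscular dystrophy or related disease, as mutations in LMNA do.

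Lmna itself was checked first. Its brightest probe set read 7.07, 6.95 and 6.11 in Delta9 cells, against 8.35, 8.89 and 8.78 in WT cells (log2 expression). The groups did not overlap, and the difference of -1.96 (Delta9 minus WT, log2, SE 0.28, 95% interval -2.63 to -1.30) missed the threshold with an adjusted p of 0.0899 by limma. Where this probe set lies relative to the altered part of Lmna was not determined here, and a probe set outside that part would not check the genotype labels.

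The cells were checked for what they held. Fibroblast markers were bright, with a mean of 10.11, 9.94 and 10.08 in Delta9 cells and 10.36, 10.50 and 10.55 in WT cells over 11 genes (log2), and 11 of 11 had lower values in Delta9 (median -0.26, 3 with an unadjusted p under 0.05). Macrophage markers were bright as well. Their mean over 14 genes was 9.84, 9.71 and 10.29 in Delta9 cells, against 9.83, 9.11 and 7.63 in WT cells, and 14 of 14 had higher values in Delta9 (median 1.08, 3 with an unadjusted p under 0.05). Of all genes 53.2% had lower values in Delta9, and 10.6% had an unadjusted p under 0.05 (limma). Genes of 1 list were read in the same samples and are not separate observations. In such mixed cultures fewer cells of a type and less RNA per cell cannot be told apart. WT replicate 3 was lowest for the macrophage markers, and WT replicate 1 lay among the Delta9 samples. Endothelial and keratinocyte markers were mostly dim, with list means of at most 4.53 and 3.62, but Epcam of the keratinocyte list had a mean of 6.03 over the 6 arrays. All 5 keratinocyte markers had lower values in Delta9 (median -0.17, 1 with an unadjusted p under 0.05 by limma). Skeletal muscle markers, of interest because nesprins are abundant in muscle, had list means of 5.30, 4.27 and 4.91 in Delta9 cells, against 4.78, 5.64 and 4.87 in WT cells, with overlapping groups. That list was uneven, from a mean over the 6 arrays of 2.16 for Myf5 to 7.69 for Acta1. Myh3 and Des also gave clear signal, at 6.96 and 6.62. The poly-A spike-in transcripts, added as controls, gave less signal on Delta9 replicate 3 and WT replicate 1, at 5.20 and 4.85, than on the other 4 arrays, at 5.64 to 6.10 (mean log2 over 24 probe sets).

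None of the 10 nuclear envelope genes rose or fell past the threshold in Delta9 cells (limma, Benjamini-Hochberg adjusted p under 0.05 over all genes, where 0.0605% of genes were called), and 0 of 10 had an unadjusted p under 0.05, against 10.6% of all genes. Their adjusted p ran from 0.50 to 0.983. Values were lower in Delta9 for 7 genes and higher for 3, against 53.2% of all genes lower. Differences ran from -0.36 for Lemd3 to 0.21 for Lemd2, with a median of -0.10, beside -0.01 over all genes. Every one of the 10 intervals contained 0. Over the 10 genes the interval bounds reached down to -0.89 for Syne1 and up to 0.62 for Lemd2, and none came as low as the upper bound of Lmna at -1.30. By size of the difference the 10 genes lay between the 3.87 and 84.8 percentiles of all genes. Such intervals still leave room for the changes inside them.

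**Figure D1:**
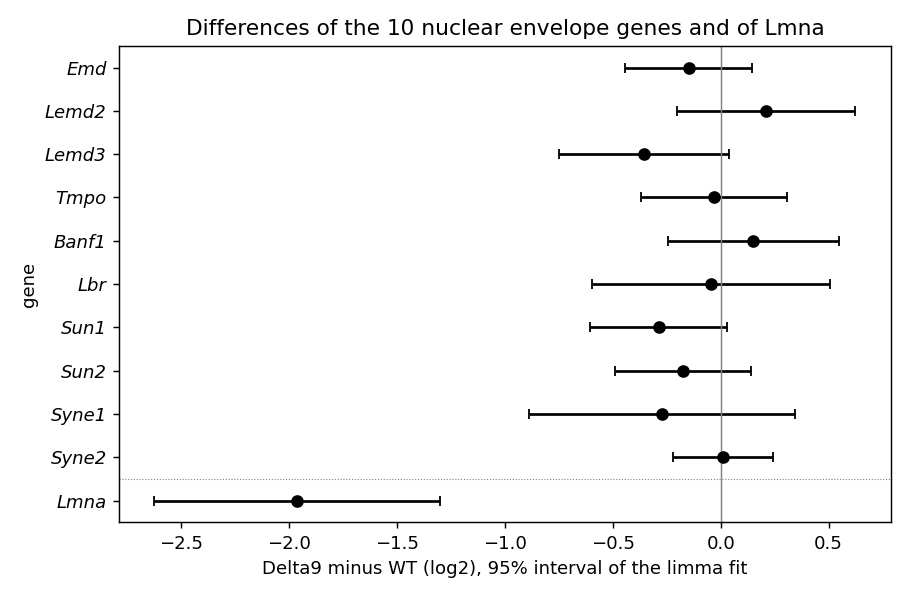
Difference between Delta9 and WT (horizontal axis, log2, Delta9 minus WT) for the 10 nuclear envelope genes and, under the dotted line, Lmna. Points are limma estimates from 3 Delta9 and 3 WT arrays and bars their 95% intervals; the 10 intervals all cross 0, and that of Lmna ends at -1.30.

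Emd encodes emerin, a LEM protein that binds lamin A and BAF and needs lamin A to stay at the inner membrane. It read 8.81, 8.74 and 8.56 in Delta9 cells, against 8.91, 8.76 and 8.88 in WT cells (log2). Delta9 replicate 3 was the lowest, and the other Delta9 values lay within or next to the WT range. The difference was -0.15 (SE 0.12, 95% interval -0.44 to 0.15, adjusted p 0.711), a level of 0.90 times that of WT with bounds of 0.74 and 1.11. Without Delta9 replicate 3 the difference was -0.08.

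Lemd3, also called MAN1, is a LEM protein that restrains signalling by TGF-beta and BMP through binding of receptor-regulated Smads. It had the largest difference of the 10. Its brightest probe set read 5.41, 5.68 and 5.75 in Delta9 cells, against 6.18, 5.78 and 5.95 in WT cells (log2). All 3 Delta9 values were below all 3 WT values, but the highest Delta9 value and the lowest WT value were close. The difference of -0.36 (SE 0.17, 95% interval -0.75 to 0.04, adjusted p 0.50) corresponds to 0.78 times the WT level. With the mean of the 3 probe sets it was -0.14. The 2 other probe sets of Lemd3 were dim and disagreed in sign, at -0.15 for 1439587_at and 0.09 for 1459700_at, with overlapping groups on both.

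Lemd2 encodes a LEM protein that recruits membrane-remodelling factors to the re-forming nuclear envelope. It read 6.79, 6.87 and 6.68 in Delta9 cells, against 6.39, 6.42 and 6.89 in WT cells (log2). WT replicate 3 was the highest of the 6 arrays, and the other WT values were the lowest. The difference was 0.21 (SE 0.18, 95% interval -0.20 to 0.62, adjusted p 0.706), and it was 0.37 without WT replicate 3 (adjusted p 0.636), 0.12 without WT replicate 1 (adjusted p 0.865) and 0.14 without WT replicate 2 (adjusted p 0.892).

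Tmpo encodes the LAP2 proteins, membrane-bound and nucleoplasmic LEM isoforms that bind B-type or A-type lamins. Its brightest probe set read 7.17, 7.18 and 6.92 in Delta9 cells, against 7.24, 7.11 and 7.01 in WT cells (log2). The groups overlapped, and the difference was -0.03 (SE 0.14, 95% interval -0.37 to 0.31, adjusted p 0.954). This gene had 6 probe sets, and the sign depended on which was taken: the next brightest, 1452036_a_at and 1426349_s_at, differed by 0.14 (SE 0.20) and 0.21 (SE 0.16), whereas 3 dim ones differed by -0.15 to -0.04. Which of the Tmpo isoforms each probe set reads was not determined here.

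Banf1 encodes BAF, the small DNA-bridging protein that LEM domains bind. It read 10.10, 10.16 and 9.64 in Delta9 cells, against 9.95, 9.84 and 9.64 in WT cells (log2). Delta9 replicates 1 and 2 were the highest of the 6 arrays, and Delta9 replicate 3 the lowest. The difference was 0.15 (SE 0.17, 95% interval -0.25 to 0.55, adjusted p 0.783). The 3 probe sets of Banf1 were all bright and had the same sign, with differences of 0.06 to 0.16. Without Delta9 replicate 3 the difference was 0.32 (SE 0.12, adjusted p 0.354). It was 0.08 without Delta9 replicate 1, 0.06 without Delta9 replicate 2, 0.07 without WT replicate 3 and 0.04 with the mean of 19 cell cycle genes as a covariate. Where probe sets of the _s_at and _x_at types were left out, 1421081_a_at stood for Banf1. The difference was then 0.06 (SE 0.16, adjusted p 0.92 by limma).

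Lbr encodes the lamin B receptor, which holds heterochromatin at the envelope through its Tudor domain and is also a sterol reductase of cholesterol synthesis. It read 6.77, 6.89 and 6.04 in Delta9 cells, against 6.56, 6.70 and 6.56 in WT cells (log2). Delta9 replicate 3 stood below the other 5 arrays and the 2 other Delta9 arrays above all 3 WT arrays. The difference was -0.04 (SE 0.23, 95% interval -0.60 to 0.51, adjusted p 0.960), and it was 0.22 (SE 0.14, adjusted p 0.530) without Delta9 replicate 3 and 0.0018 without WT replicate 2, so that leaving out either array turned its sign.

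**Figure D2:**
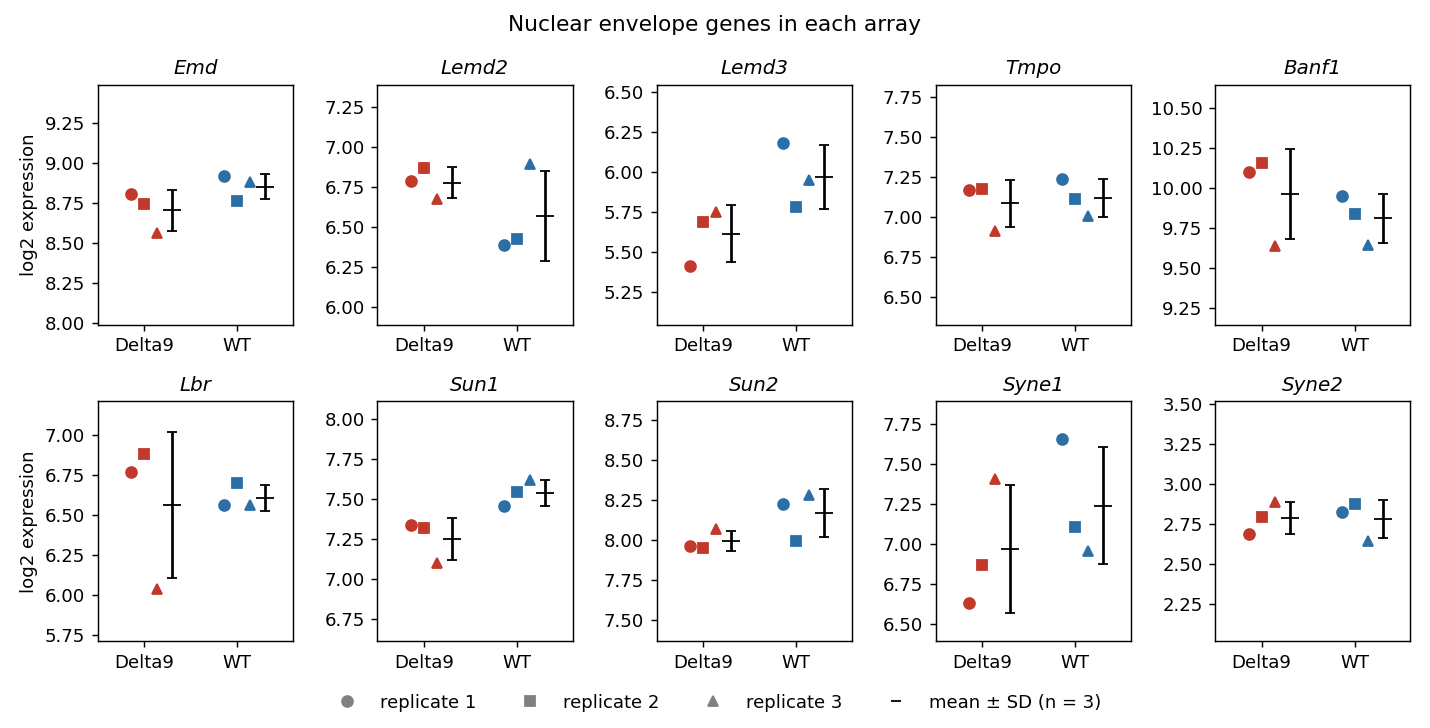
Expression of each nuclear envelope gene (vertical axis, log2, each panel spanning 1.5 units) in 3 Delta9 arrays (red, left) and 3 WT arrays (blue, right), with the marker shape giving the replicate number and black bars the mean ± SD. The groups are separated for Lemd3 and Sun1 only, and Delta9 replicate 3 lies lowest for 5 of the 10 genes.

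The LINC complex starts at the inner membrane with the SUN proteins. Sun1 encodes a SUN protein that binds prelamin A and nuclear pores. Its brightest probe set read 7.34, 7.32 and 7.10 in Delta9 cells, against 7.45, 7.54 and 7.62 in WT cells (log2). All 3 Delta9 values were below all 3 WT values. The difference of -0.29 (SE 0.13, 95% interval -0.60 to 0.03, adjusted p 0.50) corresponds to 0.82 times the WT level. The second probe set, 1426667_a_at, was dim at a mean of 3.85, with overlapping groups and a difference of 0.07 (SE 0.21). The mean of both probe sets differed by -0.11.

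Sun2 encodes the second widely expressed SUN protein. It read 7.96, 7.95 and 8.06 in Delta9 cells, against 8.23, 7.99 and 8.28 in WT cells (log2). The WT array of lowest value, replicate 2, lay within the Delta9 range. The difference was -0.17 (SE 0.13, 95% interval -0.49 to 0.14, adjusted p 0.680), and -0.10 with the mean of its 2 probe sets.

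Syne1 encodes a giant nesprin that binds actin at one end and SUN proteins at the other, with many shorter isoforms. Its brightest probe set read 6.63, 6.87 and 7.40 in Delta9 cells, against 7.65, 7.10 and 6.95 in WT cells (log2). It had the widest range of the 10 genes over the 6 arrays, 1.03 log2, with Delta9 replicate 3 and WT replicate 1 the highest. The difference was -0.27 (SE 0.26, 95% interval -0.89 to 0.35, adjusted p 0.748). It was -0.06 without WT replicate 1, -0.10 without Delta9 replicate 1, -0.41 without WT replicate 3 and -0.49 without Delta9 replicate 3, with adjusted p of 0.956, 0.951, 0.742 and 0.412. The dimmer probe sets 1421545_a_at and 1455225_at differed by 0.05 and -0.02.

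Syne2, the other giant nesprin, was dim on all 4 of its probe sets, whose means lay between 2.19 and 2.79 (log2). Its brightest probe set read 2.69, 2.79 and 2.89 in Delta9 cells, against 2.83, 2.87 and 2.65 in WT cells, where 22% of the genes' representative probe sets were at or below its mean. The difference was 0.01 (SE 0.10, 95% interval -0.22 to 0.24, adjusted p 0.983). At this signal a difference in Syne2 would be hard to see, and the table holds no detection calls, so its interval bounds the probe set's signal and not the transcript.

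Over all 26 probe sets of the 10 genes, 12 had higher and 14 lower values in Delta9. When all 45037 probe sets were fitted, 0 of the 26 passed (limma, where 0.0355% of probe sets were called), and 0 had an unadjusted p under 0.05, against 8.94%. The groups did not overlap on 3 of the 26, the brightest of Lemd3 and Sun1 and the dim 1421237_at of Tmpo, each with Delta9 below WT, against 15.5% of all probe sets in either direction. At the gene level 2 of the 10 were separated, both lower in Delta9, where 9.99% of all genes had Delta9 below WT and 17.3% were separated in either direction.

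**Figure D3:**
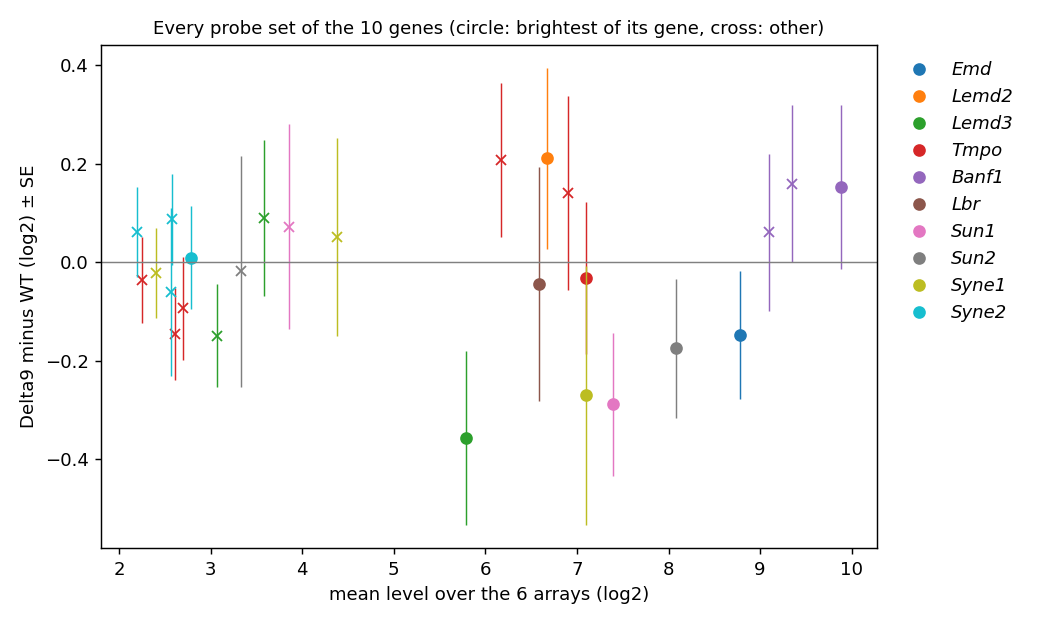
Difference between Delta9 and WT (vertical axis, log2, ± SE) against the mean level over the 6 arrays (horizontal axis, log2) for the 26 probe sets, coloured by gene, with circles for the probe set that represents its gene and crosses for the others. Signs differ within Lemd3, Tmpo, Sun1, Syne1 and Syne2, and the 4 probe sets of Syne2 lie below a level of 2.8.

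The 10 genes did not follow one pattern across arrays. Delta9 replicate 3 held the lowest value for 5 of them, Emd, Tmpo, Banf1, Lbr and Sun1, and WT replicate 1 the highest for 4, Emd, Lemd3, Tmpo and Syne1. The same 2 arrays gave the lower spike-in signal. Their 18S ribosomal RNA signal was the highest, at 9.25 and 8.89, against 7.28 to 8.48 on the other 4 (log2). For Gapdh control probe sets the 3' minus 5' signal, a sign of RNA quality, was 0.25, 0.23 and 0.57 in Delta9 cells, against 0.57, 0.49 and 0.51 in WT cells (log2), and that of beta-actin was 0.68, 0.51 and 0.84 in Delta9 cells, against 0.86, 0.82 and 1.41 in WT cells. Delta9 replicates 1 and 2 were thus lowest by both measures. The 2 arrays also had the lowest mean of 19 cell cycle genes. Relative to the 6-array mean that list stood at 0.30, 0.49 and -0.38 in Delta9 replicates 1, 2 and 3, and at -0.39, 0.10 and -0.12 in WT replicates 1, 2 and 3. Of the 19 cell cycle genes, 17 had higher values in Delta9, with a median of 0.23, 0 past the threshold (limma) and 1 with an unadjusted p under 0.05. By that last measure 10.6% of all genes were called, and 53.2% of all genes had lower values in Delta9.

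Among the 4 arrays with more spike-in signal, Banf1 differed by 0.38, Lbr by 0.20 and Tmpo by 0.11 (Delta9 minus WT, log2). Between the 2 remaining arrays, which allow no test, the same genes differed by -0.31, -0.52 and -0.32. The sign of these 3 genes differed between the parts, as did that of the dim Syne2 (-0.02 and 0.06). Lemd2 (0.17 and 0.29), Emd (-0.04 and -0.35), Lemd3 (-0.32 and -0.43), Sun1 (-0.26 and -0.35), Sun2 (-0.18 and -0.16) and Syne1 (-0.28 and -0.25) had the same sign in both. For Lemd3 and Sun1 that sign was fixed in advance, since their groups do not overlap. With the split as a block the SE of Syne1 was 0.11 against 0.26 without it, and the adjusted p was 0.273 for Syne1, 0.221 for Lemd3 and 0.18 for Sun1, so none passed. With the mean of the cell cycle genes as a covariate Lbr differed by -0.27 (SE 0.14) and Syne1 by -0.04 (SE 0.19). With the macrophage mean as a covariate, Syne1 differed by -0.64 (SE 0.26, adjusted p 0.545) and Lemd2 by 0.48 (SE 0.15, adjusted p 0.530), each over 1.5 times its value without it, and 0 of the 10 genes passed (limma, 2 with an unadjusted p under 0.05). The part of cell cycle state, macrophage content and array quality in these values was not tested beyond these fits.

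**Figure D4:**
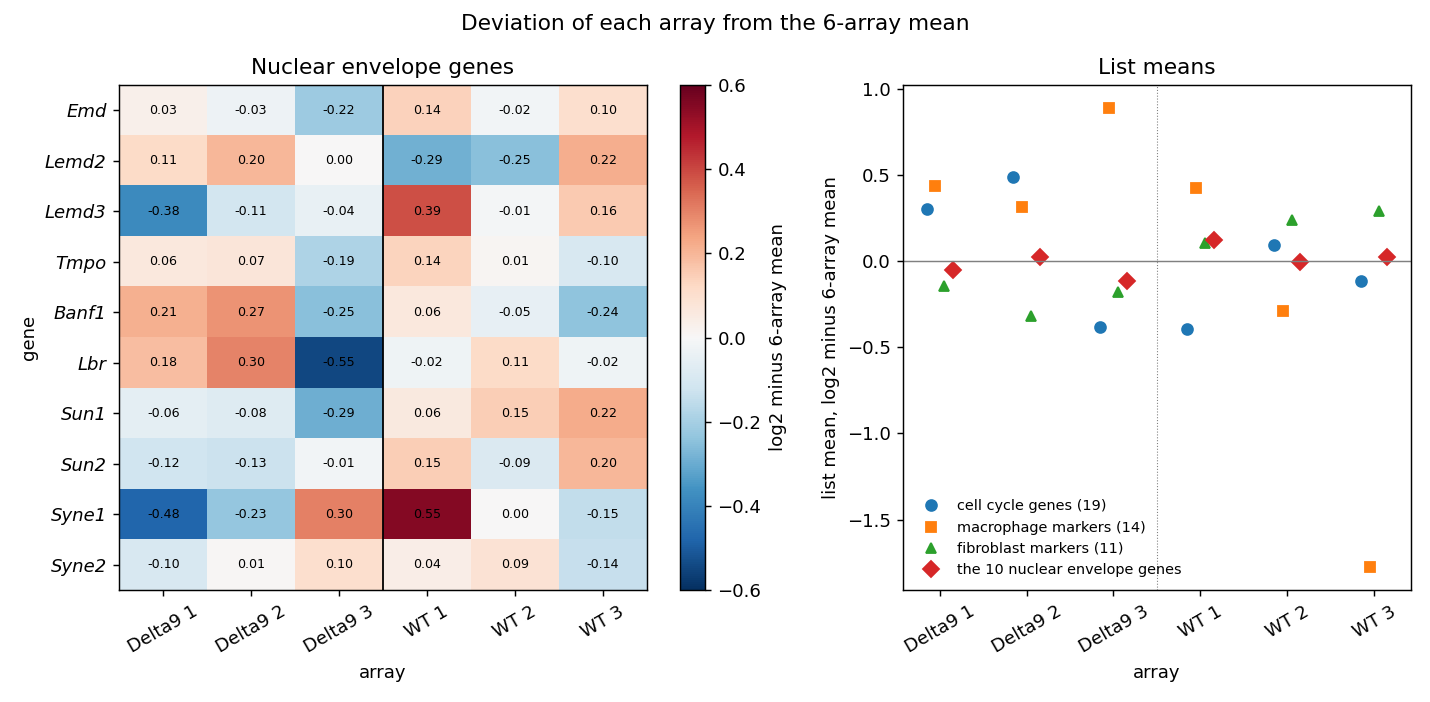
Left, the value of each nuclear envelope gene on each array minus its mean over the 6 arrays (log2, colour and printed number), with Delta9 arrays left of the line and WT arrays right of it. Right, the same deviation averaged over 4 gene lists; the 10 genes' mean stays between -0.11 and 0.12, while the macrophage marker mean lies between -1.78 and 0.89.

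Lbr and Tmpo are known as genes whose transcripts are more abundant in dividing cells. Their start regions are shown for that and because their sign differed between the parts of the array split, as it did for Banf1 and Syne2. Both were lowest on Delta9 replicate 3, where the cell cycle mean was -0.38, but Tmpo was highest on WT replicate 1, where that mean was lowest (-0.39). With that mean as a covariate Tmpo differed by -0.08 (SE 0.14), against -0.03 (SE 0.14) without it. The part of cell division in these values was not tested beyond such fits. The letters CCAAT (a box bound by NF-Y) and TTTGAA (the core of the cell cycle homology region) were searched on both strands in windows of 250 bases before and 50 after the annotated RefSeq start. Both windows lie on the minus strand of assembly GRCm38.p6, Lbr at chr1:181842352-181842651 and Tmpo at chr10:91171570-91171869, and capitals mark the matches on either strand.
Lbr: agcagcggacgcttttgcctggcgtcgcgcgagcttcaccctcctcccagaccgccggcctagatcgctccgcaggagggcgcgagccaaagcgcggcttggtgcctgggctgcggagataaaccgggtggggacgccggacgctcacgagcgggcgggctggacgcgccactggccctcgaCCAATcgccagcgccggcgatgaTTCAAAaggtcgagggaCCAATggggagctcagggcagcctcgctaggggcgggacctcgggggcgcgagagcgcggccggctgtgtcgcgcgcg
Tmpo: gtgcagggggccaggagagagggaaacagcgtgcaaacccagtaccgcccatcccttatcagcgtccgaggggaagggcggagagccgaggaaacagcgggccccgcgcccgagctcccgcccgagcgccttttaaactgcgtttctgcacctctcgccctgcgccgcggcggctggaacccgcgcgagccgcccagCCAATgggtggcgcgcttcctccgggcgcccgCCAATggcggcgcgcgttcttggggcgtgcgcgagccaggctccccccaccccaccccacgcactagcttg
The Lbr window held 2 CCAAT matches and 1 TTTGAA match, and the Tmpo window 2 CCAAT matches, with no overlap between matches. A second window of Tmpo, at chr10:91170501-91170800 and not printed, held no CCAAT and 1 TTTGAA match. Of 32851 windows of this length, 37.4% held CCAAT at least once, 11.7% at least 2 times, 17.9% held TTTGAA and 6.95% both. Of the 10 genes 9 had a window, with 14 windows in all, of which 8 held CCAAT and 3 held TTTGAA. The Sun2 window held as many of each as that of Lbr, and Sun2 had the same sign in both parts of the array split. Banf1, whose sign differed between those parts, had 1 CCAAT and no TTTGAA in its first window and neither in its second. Whether the motifs bear on the values was not tested. These matches describe the letters and are not shown to be used in these cells.

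Other genes of the envelope and its linkers were read from a list of their own. Of 44 listed genes 43 were measured, 20 with higher and 23 with lower values in Delta9 and a median of -0.03. None passed the threshold (limma), and 1 higher and 4 lower had an unadjusted p under 0.05, where 4.54% of all genes were higher and 6.06% lower by that measure. Of the 43, 1 gene had all Delta9 values above all WT values and 7 had them below, against 7.27% and 9.99% of all genes.

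Lmna was one of the 4 lower genes. Tm7sf2, the second sterol reductase that shares the enzymatic step of Lbr, read 5.31, 5.52 and 5.59 in Delta9 cells, against 5.78, 5.88 and 6.0 in WT cells (log2). The groups did not overlap, and the difference was -0.41 (SE 0.14, adjusted p 0.401). Smad3, a transducer of TGF-beta signals that Lemd3 binds, read 7.15, 7.21 and 6.86 in Delta9 cells, against 7.38, 7.43 and 7.61 in WT cells, a difference of -0.40 (SE 0.15, adjusted p 0.421). Dync1h1, the heavy chain of the dynein motor that nesprins recruit to the nucleus, differed by -0.38 (SE 0.16, adjusted p 0.463). Vrk1, the kinase that phosphorylates BAF and releases it from DNA, was the one higher gene. It read 6.21, 5.90 and 5.50 in Delta9 cells, against 4.85, 5.48 and 5.23 in WT cells, with all 3 Delta9 values above all 3 WT values and a difference of 0.69 (SE 0.24, adjusted p 0.40). The lowest Delta9 value and the highest WT value were close, at 5.50 and 5.48. The lowest value of each group fell on the arrays with less spike-in signal, Delta9 replicate 3 and WT replicate 1.

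Of the further envelope genes described here none had an unadjusted p under 0.05. Tor1aip1, the membrane protein LAP1 that activates torsins, read 7.72, 7.92 and 8.12 in Delta9 cells, against 8.23, 8.18 and 8.34 in WT cells, a difference of -0.33 (SE 0.15). The groups did not overlap for this gene. Hdac3, a histone deacetylase that emerin and LAP2 bind, differed by -0.27 (SE 0.15), also without overlap. Nrm, the membrane protein nurim, differed by 0.39 (SE 0.21), and Ankle2, a LEM protein that controls BAF phosphorylation, by -0.30 (SE 0.32). Tmem43, a membrane partner of emerin, differed by 0.07 (SE 0.34), Tmem201, a membrane protein of the LINC network, by -0.04 (SE 0.18), Lmnb2, the gene of lamin B2, by 0.09 (SE 0.19) and the nesprin gene Syne3 by 0.03 (SE 0.10). The groups overlapped for these 6 genes.

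**Figure D5:**
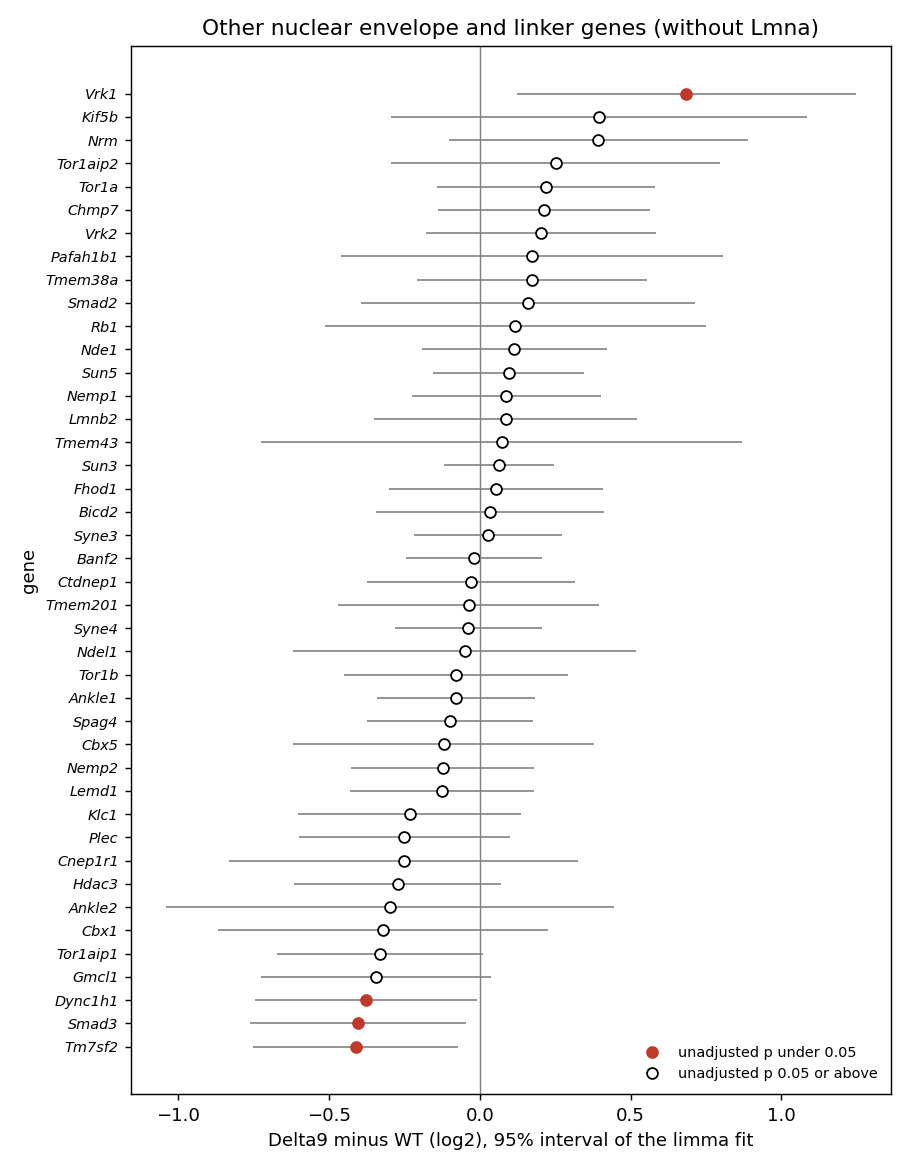
Difference between Delta9 and WT (horizontal axis, log2, Delta9 minus WT, with 95% intervals of the limma fit) for the 42 measured genes of the envelope and linker list other than Lmna, ordered by difference. Filled points mark the 4 with an unadjusted p under 0.05, from Vrk1 at 0.69 to Tm7sf2 at -0.41.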

How the data were processed

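RNA of 3 Delta9 and 3 WT samples was hybridised to Affymetrix arrays after biotin labelling, per the labels' protocols. The authors deposited log2 probe set values for 45101 probe sets; the log2 base was read from their range, while how they were summarised and normalized is not given in the sources used here. Array medians lay between 3.36 and 3.43. Tests left out the 64 control probe sets. Names came from the platform annotation: 34945 probe sets had 1 symbol, 932 several and 9160 are unnamed here; 34741 matched a RefSeq table of GRCm38.p6 by Entrez identifier. Promoter windows are RefSeq's.

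Delta9 was compared with WT over all 18193 genes by limma 3.58.1 (lmFit, eBayes with trend) under R 4.3.3, with Benjamini-Hochberg adjustment over all genes and a threshold of 0.05, two-sided, without filter or pseudocount. Intervals are 95% and come from the moderated fit. The script was tested on simulated data. Genes named were the 10 genes, Lmna, those of the envelope list with an unadjusted p under 0.05 and more of it chosen by name. The genes and lists were chosen with earlier results of these data known. Alternatives concerned normalization, dim genes, probe set choice, variance prior, blocks, covariates and left-out samples. The 3 arrays a group limit the precision. Figures were drawn with matplotlib 3.10.9.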

Additional observations from a re-analysis of the deposited data

How the results depend on the processing

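Under 16 alternatives, of which the fit on 4 arrays with more spike-in signal was chosen after seeing the data, 0 of the 10 genes passed by limma. The count over all genes ran from 0 with the replicate block to 149 with the spike-in split as a block. No adjusted p of the 10 genes was below 0.18 (Sun1, spike-in split), and at most 3 of them had an unadjusted p under 0.05, with that split. The median difference of the 10 genes lay between -0.161 and -0.0308 (the -0.0308 on those 4 arrays) and between -0.161 and -0.0576 over left-out samples. Emd, Lemd2, Lemd3, Banf1, Sun1, Sun2 and Syne1 kept their sign in all 16, but part of this was fixed in advance. Leaving out the variance trend, adding a block balanced over the groups or dropping dim genes cannot change the difference of a gene kept. The choice of probe set cannot change it for Emd and Lemd2, which had a single probe set. For Lemd3 and Sun1, whose groups did not overlap, leaving out samples cannot turn the sign. Lbr turned to 0.0535 with the macrophage covariate and to 0.196 on the 4 arrays, and ran from -0.204 (without Delta9 replicate 2) to 0.219 (without Delta9 replicate 3) over left-out samples. Syne2 turned to -0.103 with that covariate and to -0.0175 on the 4 arrays, and ran from -0.0588 to 0.0599; the filter on dim genes left it out. Tmpo turned to 0.00617 with the mean of its probe sets and to 0.113 on the 4 arrays, and ran from -0.0891 to 0.0533. None of these values passed, and the cause was not tested. The envelope list gave 1 call, Lmna, with the mean of probe sets, the spike-in split, the cell cycle covariate, on the 4 arrays and without Delta9 replicate 3, and 0 to 1 calls over left-out samples.

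Samples of the same replicate number were not the most alike. Their deviations correlated at -0.40, 0.17 and -0.43 over all genes, and 0 of 3 Delta9 samples correlated best with the WT sample of its number. This cannot settle whether samples were paired, since array differences such as those in spike-in signal and macrophage markers also enter the correlations. Samples were still alike across the groups, with Delta9 replicate 3 and WT replicate 1 at 0.59. Delta9 replicates 1 and 2 correlated best with WT replicate 3, at 0.28 and 0.34. With the replicate block 0 of the 10 genes and 0 of the envelope list passed, but so did 0 of all genes. The median difference was -0.0958 as without the block, since a block balanced over the groups cannot change it.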
